A study of Mus musculus with 9 samples.

Results

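The VEGF ligands, their receptors and the neuropilins were examined as 9 genes in primary mouse lung endothelial cells (MLEC), chosen by name: the receptors Flt1 (VEGFR1), Kdr (VEGFR2) and Flt4 (VEGFR3), the co-receptors Nrp1 and Nrp2, and the ligands Vegfa, Vegfb, Vegfc and Pgf (placental growth factor). Each was found as 1 locus among the 37104 loci of the deposited tables. All 9 passed the filter of a mean of 2 FPKM (fragments per kilobase of transcript, scaled to the sequenced fragments) in at least 1 group, along with 10605 genes in all.

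Poly-A RNA was sequenced from 9 libraries, 3 in each of 3 groups, with separate cell isolations for every library, each from the pooled lungs of 4 adult C57BL/6J mice aged 10 to 12 weeks. The cells were grown in culture and selected with antibody to ICAM2. All mice lacked Jnk3 (Jnk3-/-). ECtrl mice carried Cdh5-Cre with wild-type Jnk1 and Jnk2, EfCtrl mice carried no Cre but had Jnk1LoxP/LoxP and Jnk2LoxP/LoxP alleles, and E3KO mice had both the LoxP alleles and Cdh5-Cre, so that JNK1 and JNK2 were targeted in endothelium by the Cdh5 promoter. The controls therefore differ from each other in both Cre and LoxP alleles, and no group had intact Jnk3. The values are FPKM, which do not keep the sequencing depth. The paper gives an average number of aligned reads per library, but the depth of each single library is not known here.

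VEGF-A and placental growth factor are secreted dimers. VEGF-A binds VEGFR1 and VEGFR2, while VEGF-B and placental growth factor bind only VEGFR1 among the 3 receptors. VEGFR2 carries most of the growth and permeability signal in blood endothelium. VEGFR1 binds VEGF-A tightly but signals weakly, and it also exists in a soluble form that captures ligand. VEGF-C acts mainly through VEGFR3 in lymphatic endothelium. Neuropilins bind both VEGFs and class 3 semaphorins. Among these genes, Flt1 was higher and Pgf was lower in the libraries labelled E3KO than in the mean of the controls. Neither Kdr nor any of the other members passed the test, and no member passed against either control group alone.

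The targeted genes were examined first. Mapk8 (JNK1) measured 17.0, 15.0 and 17.9 FPKM in ECtrl, 16.7, 14.0 and 15.1 in EfCtrl, and 20.7, 8.77 and 4.65 in the libraries labelled E3KO. The library labelled E3KO replicate 1 was above every control, while the other 2 were below every control. Mapk9 (JNK2) measured 44.1, 50.9 and 47.9 FPKM in ECtrl, 45.5, 42.7 and 47.9 in EfCtrl, and 27.6, 35.1 and 20.7 in E3KO, with no overlap between E3KO and the controls. Mapk10 (JNK3) was at most 0.270 FPKM in any library. An FPKM covers the whole locus, including exons outside the part removed by Cre, so a high Mapk8 value does not by itself measure the deletion. The library labelled E3KO replicate 1 also stood apart in its summed FPKM, 9841812 against 656089 to 908401 in the other 8 libraries, with 96.4% of the sum in its 10 highest symbols. Without the symbols averaging 5000 FPKM or more, the sum of this library was 420517, within the 388537 to 433172 of the others. The median correlation of this library with the others across genes was 0.871, against 0.897 to 0.935 for the others. The members, the all-gene count and the called list genes are also given without it.

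Flt1 lies on chromosome 5 (mm10, chr5:147561604-147726011, minus strand), and GENCODE lists 6 transcripts for it, 2 of them protein coding. Pgf lies on chromosome 12 (chr12:85166639-85177296, minus strand), and Kdr on chromosome 5 (chr5:75932827-75978458, minus strand). The deposited value is 1 level per locus, so membrane and soluble Flt1 were not separated. The 250 bases before the first RefSeq start site (GRCm38.p6) are shown for Flt1, Pgf and Kdr. Flt1 and Pgf passed the test against the mean of controls, and Kdr did not. The bases read 5′ to 3′ in the direction of transcription, and capitals mark the motifs found. The Flt1 window is chr5:147726012-147726261, the Pgf window chr12:85177314-85177563 and the Kdr window chr5:75978456-75978705, all on the minus strand.
Flt1: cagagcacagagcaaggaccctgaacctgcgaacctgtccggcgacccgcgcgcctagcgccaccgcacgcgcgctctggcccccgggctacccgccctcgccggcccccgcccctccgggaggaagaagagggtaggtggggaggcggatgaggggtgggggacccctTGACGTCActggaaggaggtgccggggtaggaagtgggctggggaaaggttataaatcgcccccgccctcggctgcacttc
Pgf: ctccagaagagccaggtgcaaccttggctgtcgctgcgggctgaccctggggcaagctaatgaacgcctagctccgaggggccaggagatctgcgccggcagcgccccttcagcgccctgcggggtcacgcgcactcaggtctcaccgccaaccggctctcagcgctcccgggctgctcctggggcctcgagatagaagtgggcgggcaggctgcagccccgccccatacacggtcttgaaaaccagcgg
Kdr: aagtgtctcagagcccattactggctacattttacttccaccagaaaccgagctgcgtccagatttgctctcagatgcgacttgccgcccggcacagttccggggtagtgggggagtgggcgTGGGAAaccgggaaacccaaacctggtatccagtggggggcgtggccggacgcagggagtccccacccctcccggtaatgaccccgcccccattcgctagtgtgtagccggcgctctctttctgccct
The motifs searched, on both strands, were AP-1 (TGANTCA), the cyclic AMP response element (CRE, TGACGTCA), the hypoxia response element (HRE, ACGTG), an ETS site (CCGGAAG) and an RBPJ site (TGGGAA). No 2 of the matches shown overlap. Flt1 held 1 CRE, 81 to 74 bases before the start site, and no AP-1 match. The CRE letters occurred in 1.55% of 32851 promoter windows of the same length and the AP-1 letters in 6.75%. Kdr held 1 RBPJ match, 128 to 123 bases before its start, a motif found in 21.6% of windows. Pgf held none of the 5 motifs. HRE letters occurred in 16.6% of windows and ETS letters in 6.91%, and neither was in the 3 windows shown. These matches describe letters in the window and not sites of binding. GC content was 70.4% in the Flt1 window and 68.4% in the Pgf window, against a median of 52.4% over all windows.

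Flt1, the gene of VEGFR1, measured 2.44, 5.04 and 6.63 FPKM in ECtrl, 4.03, 5.53 and 4.37 in EfCtrl, and 9.32, 9.61 and 11.8 in E3KO. All 3 E3KO libraries were above all 6 controls. The mean was 10.2 ± 1.35 FPKM (SD, n = 3) in E3KO and 4.67 ± 1.43 (SD, n = 6) in the controls, a ratio of 2.19. On the log2(FPKM + 1) scale the difference from the mean of controls was 1.02 (SE 0.24, 95% interval 0.48 to 1.56, limma, Benjamini-Hochberg adjusted p = 0.0492). The exact permutation test of Flt1 alone (3 against 6 libraries, two-sided) gave p = 0.0119, the smallest that the 84 splits allow. Against each control on its own the log2 difference was 1.05 for ECtrl (adjusted p = 0.0844) and 1.00 for EfCtrl (adjusted p = 0.122), of like size but not past the threshold. In bulk RNA, a change in the number of cells that carry a transcript and a change in the RNA per cell cannot be told apart.

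Kdr, the gene of VEGFR2, measured 130, 124 and 147 FPKM in ECtrl, 140, 126 and 132 in EfCtrl, and 128, 142 and 152 in E3KO. The groups overlapped, although the library labelled E3KO replicate 3 was above every control. The log2 difference from the mean of controls was 0.08 with a 95% interval of -0.15 to 0.31 (limma, adjusted p = 0.655), an interval narrower than that of any other member. Flt4, the gene of VEGFR3, measured 172, 127 and 173 FPKM in ECtrl, 188, 157 and 168 in EfCtrl, and 129, 158 and 164 in E3KO. The E3KO values fell within the range of the controls. The log2 difference was -0.12 with an interval of -0.44 to 0.19 (adjusted p = 0.610).

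**Figure D1:**
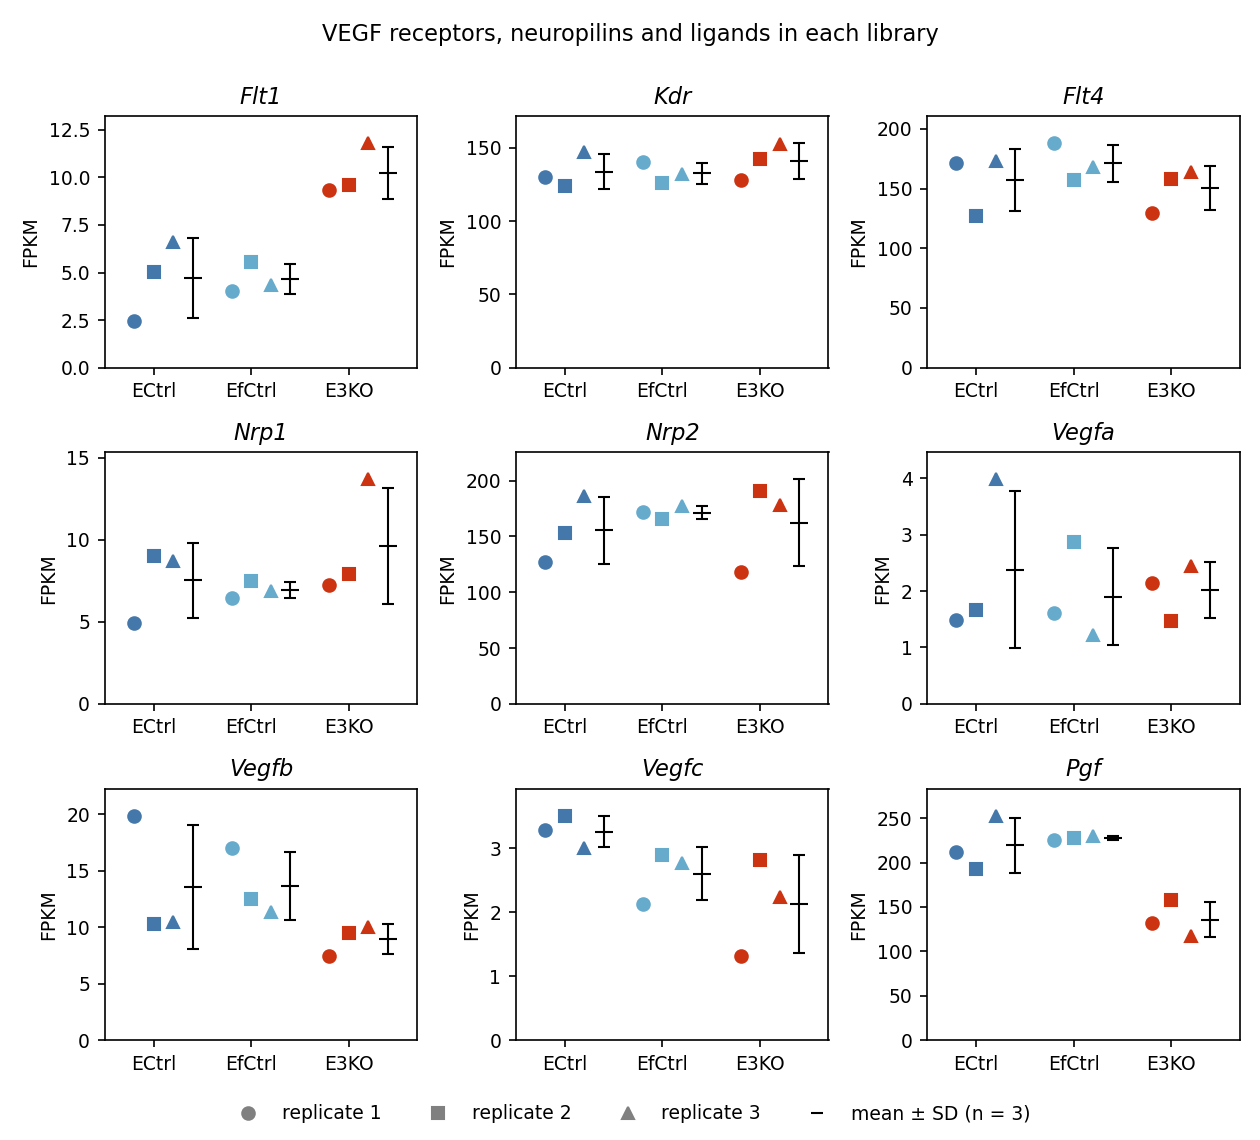
Each panel plots the FPKM of 1 gene (vertical axis, from 0) in the 9 libraries, by group, with the symbol giving the replicate number and the bar the mean ± SD of each group (n = 3). For Flt1 the E3KO libraries (9.32 to 11.8 FPKM) sit above all controls, and for Pgf (118 to 158 FPKM) and Vegfb (7.46 to 9.97 FPKM) below all controls.

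Nrp1, a co-receptor for VEGF-A and semaphorin 3A, measured 4.91, 8.99 and 8.72 FPKM in ECtrl, 6.48, 7.46 and 6.89 in EfCtrl, and 7.27, 7.89 and 13.7 in E3KO. Only the library labelled E3KO replicate 3 was above the controls. The log2 difference was 0.34 with an interval of -0.19 to 0.86 (limma, adjusted p = 0.396), and it was 0.0787 without the library labelled E3KO replicate 3. Nrp2, a co-receptor for VEGF-C and semaphorin 3F, measured 127, 153 and 187 FPKM in ECtrl, 171, 165 and 177 in EfCtrl, and 118, 191 and 178 in E3KO. The library labelled E3KO replicate 1 was the lowest of all 9 and replicate 2 the highest. The log2 difference was -0.03 with an interval of -0.44 to 0.38 (adjusted p = 0.927).

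Pgf, a ligand of VEGFR1, measured 212, 193 and 253 FPKM in ECtrl, 225, 228 and 230 in EfCtrl, and 132, 158 and 118 in E3KO. All 3 E3KO libraries were below all 6 controls, and the EfCtrl libraries lay close together. The mean was 136 ± 20.2 FPKM (SD, n = 3) in E3KO and 223 ± 20.04 (SD, n = 6) in the controls, so that controls were 1.65-fold higher. The log2 difference from the mean of controls was -0.72 (SE 0.12, 95% interval -1.005 to -0.43, limma, adjusted p = 0.0222), and the exact permutation test (3 against 6 libraries, two-sided) gave p = 0.0119. Against ECtrl the difference was -0.69 (adjusted p = 0.0524) and against EfCtrl -0.75 (adjusted p = 0.0547).

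Vegfb, which encodes another ligand of VEGFR1, measured 19.9, 10.3 and 10.5 FPKM in ECtrl, 17.0, 12.5 and 11.3 in EfCtrl, and 7.46, 9.49 and 9.97 in E3KO. The E3KO libraries were below all controls, but the highest of them was close to the lowest controls. The log2 difference was -0.52 with an interval of -1.03 to -0.00 (limma, adjusted p = 0.209), and the exact permutation test (3 against 6 libraries) gave p = 0.0714. Vegfc, the lymphatic growth factor, measured 3.28, 3.50 and 3.00 FPKM in ECtrl, 2.13, 2.90 and 2.78 in EfCtrl, and 1.32, 2.82 and 2.24 in E3KO. E3KO overlapped with EfCtrl but lay below ECtrl. Against ECtrl the log2 difference was -0.48 (limma, unadjusted p = 0.0335, adjusted p = 0.210), and against the mean of controls it was -0.35 with an interval of -0.72 to 0.02 (adjusted p = 0.231). Without the library labelled E3KO replicate 1 these became -0.27 and -0.15.

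Vegfa, the main ligand of VEGFR2, measured 1.49, 1.66 and 3.98 FPKM in ECtrl, 1.61, 2.87 and 1.22 in EfCtrl, and 2.14, 1.47 and 2.45 in E3KO. The groups overlapped fully, and the levels were near the filter. The log2 difference was -0.01 with an interval of -0.61 to 0.60 (limma, adjusted p = 0.989), and its sign depended on the pseudocount, with 0.01 when 0.1 was added in place of 1.

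**Figure D2:**
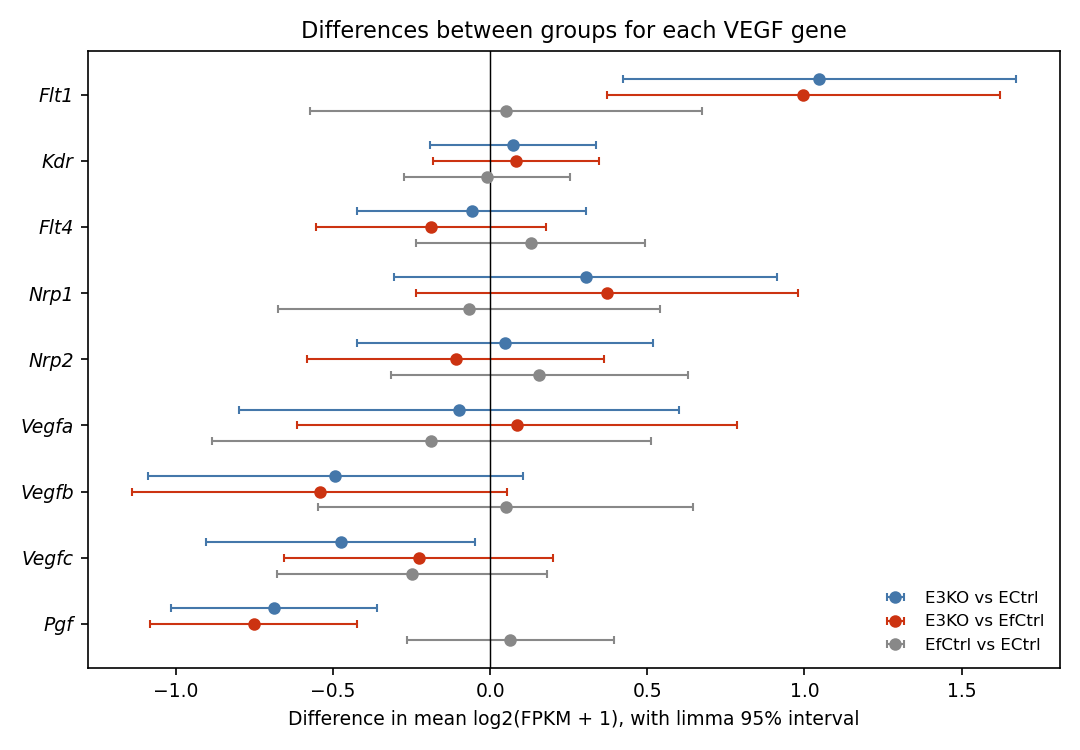
Each point gives the difference in mean log2(FPKM + 1) for 1 gene (horizontal axis) with its limma 95% interval, for E3KO against ECtrl, E3KO against EfCtrl, and EfCtrl against ECtrl (3 libraries in each group). Intervals of both E3KO comparisons lie above 0 for Flt1 and below 0 for Pgf before adjustment, while those between the controls span 0 for all 9 genes.

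Against the mean of controls, 2 of the 9 members passed the test (Flt1 higher, Pgf lower), beside 509 of all 10605 genes (4.80%), of which 163 were higher (1.54%) and 346 lower (3.26%). The exact permutation test gave a p under 0.05 for the same 2 of 9 members and for 25.7% of all genes. In the comparison with ECtrl it was 0 of 9, with 3 at an unadjusted p under 0.05, beside 2.25% of all genes called and 20.1% at an unadjusted p under 0.05. In the comparison with EfCtrl it was 0 of 9, with 2 at an unadjusted p under 0.05, beside 0.952% of all genes called and 17.7% at an unadjusted p under 0.05. EfCtrl against ECtrl gave 0 of 9 in limma, also at an unadjusted p under 0.05, beside 0.00% of all genes called and 1.84% at an unadjusted p under 0.05. The 3 comparisons with E3KO share libraries and are not independent of one another. E3KO lay above all controls for 1 of 9 members (Flt1) and below all controls for 2 of 9 (Pgf and Vegfb), against 5.18% and 11.5% of all genes. The median log2 difference of the members was -0.03, and that of all genes tested was -0.08.

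The Flt1 call was close to the threshold and depended on single libraries and on the pseudocount and filter. With a pseudocount of 0.1 or 0.5, or a filter of 1 FPKM or none, Flt1 did not pass (limma, adjusted p of 0.0531 to 0.0925). Its adjusted p was 0.0782, 0.0940 and 0.145 without the libraries labelled E3KO replicate 1, 2 and 3, 0.118, 0.0786 and 0.113 without EfCtrl replicate 1, 2 and 3, and 0.0687 without ECtrl replicate 2, while the log2 difference stayed between 0.86 and 1.15 over the 9 libraries left out in turn. For Pgf the adjusted p was 0.0611, 0.0511 and 0.0645 without EfCtrl replicate 1, 2 and 3 and 0.0916 without the library labelled E3KO replicate 3, with log2 differences of -0.83 to -0.62. Without the library labelled E3KO replicate 1, the log2 difference was 1.08 for Flt1 and -0.70 for Pgf (adjusted p = 0.0442), so that Pgf passed and Flt1 did not. Without that library the log2 differences of the others from the mean of controls were 0.15 for Kdr, -0.02 for Flt4, 0.49 for Nrp1, 0.18 for Nrp2, -0.04 for Vegfa, -0.40 for Vegfb and -0.15 for Vegfc, and none passed (adjusted p of 0.298 or more, limma), while 375 of all genes did. Against the mean of controls, the count over all genes fell from 509 to 9 without the library labelled E3KO replicate 3. It fell to 101, 149 and 237 without EfCtrl replicate 3, 1 and 2. It was 289 without the library labelled E3KO replicate 2 and 337 without ECtrl replicate 1. Without the library labelled E3KO replicate 1, the count went from 239 to 215 against ECtrl and from 101 to 6 against EfCtrl.

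Plain ratios of the FPKM of members within 1 library do not depend on how that library was scaled. The log2 ratios tested had 0.1 added to each FPKM, so their differences do depend on it in part. With 1 added, the Flt1/Kdr difference was 0.94. The Flt1/Kdr ratio of FPKM was 0.0187, 0.0407 and 0.0451 in ECtrl, 0.0287, 0.0440 and 0.0331 in EfCtrl, and 0.0730, 0.0676 and 0.0774 in E3KO. The 3 E3KO ratios lay close together and above all controls. The difference of the mean log2 ratio was 1.09, with p = 0.0119 in the exact permutation test (3 against 6 libraries) and 0.0595 after adjustment over the 5 ratios computed, the lowest that a single ratio at the smallest p can reach. Flt1 was below 0.1 times Kdr in every library.

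The Flt4/Kdr ratio was 1.03 to 1.34 in the controls and 1.01 to 1.11 in E3KO (log2 difference -0.20, exact permutation p = 0.0714, adjusted p = 0.179). The Nrp2/Nrp1 ratio was 17.0 to 26.5 in the controls and 13.0 to 24.2 in E3KO (log2 difference -0.40, exact permutation p = 0.119, adjusted p = 0.198), and its log2 difference was -0.65 without the library labelled E3KO replicate 2 and -0.21 without replicate 3. The Vegfb/Vegfa ratio was 2.64 to 13.3 in the controls and 3.48 to 6.44 in E3KO, and the Vegfc/Vegfa ratio was 0.755 to 2.28 and 0.614 to 1.92. Neither of these ligand ratios passed the exact permutation test (adjusted p = 0.321 for both), and 0 of the 5 ratios passed after adjustment.

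**Figure D3:**
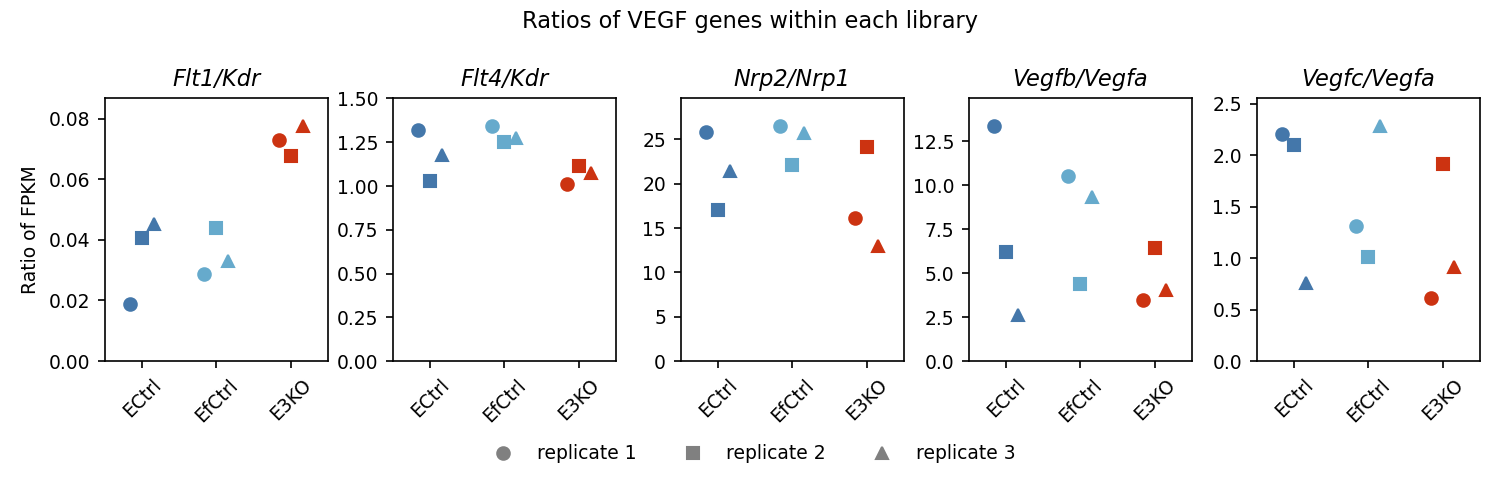
Each panel plots the ratio of the FPKM of 2 genes in the same library (vertical axis, from 0) by group, with the symbol giving the replicate number. The Flt1/Kdr ratio is 0.0676 to 0.0774 in E3KO and at most 0.0451 in the controls, while the other 4 ratios overlap between E3KO and the controls.

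FPKM is given per length, so levels can be set side by side between genes. In the 6 controls the mean level was 223 FPKM for Pgf, 164 for Flt4, 163 for Nrp2, 133 for Kdr, 13.6 for Vegfb, 7.24 for Nrp1, 4.67 for Flt1, 2.93 for Vegfc and 2.14 for Vegfa. The MLEC thus held high levels of Pgf, Flt4, Nrp2 and Kdr message and low levels of Flt1 and Vegfa. Pgf exceeded 97.6% of all genes tested and Kdr 94.99%, whereas Flt1 exceeded 21.6% and Vegfa 5.54%. The widest step between neighbours was from Kdr to Vegfb, 10.0-fold. Flt4 and Nrp2 did not differ beyond their spread (log2 difference 0.01, higher in 2 of 6 libraries, exact sign-flip permutation p = 0.969). Pgf against Flt4, Kdr against Vegfb, Vegfb against Nrp1 and Nrp1 against Flt1 each kept their order in 6 of 6 libraries, with p = 0.0312 in the exact permutation test, the smallest that 6 libraries allow, and 0.0625 after adjustment over the 8 pairs. None of the 8 pairs passed after adjustment. In the E3KO libraries, Pgf was above Flt4 in 1 of 3 and Nrp1 above Flt1 in 1 of 3, and Flt1 was above Vegfc in 3 of 3 by 2.27 on the log2 scale, values given without a test.

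The genes whose pattern over the 9 libraries was most like that of Flt1, by the root-mean-square difference in log2(FPKM + 1) centred on each gene's mean, were Steap2 (0.126), Ripk3 (0.150) and Ms4a6d (0.156), against a spread of 0.570 for Flt1 around its own mean. Steap2, a metalloreductase, went from 9.42 to 20.5 FPKM. Ripk3, the necroptosis kinase, went from 11.3 to 22.1 FPKM, and Ms4a6d, a gene known from monocytes and macrophages, from 7.23 to 14.8. Those most like Pgf were Farp1 (0.0563), Dennd4a (0.0963) and Cdh13 (0.0968), against a spread of 0.367 for Pgf. Cdh13 (T-cadherin) went from 111 FPKM in controls to 68.8 in E3KO. These 6 genes were found by likeness to members that differ between the groups, so their differences are a description.

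The other genes of the VEGF pathway were read from 5 lists, with 123 genes tested, of which 4 were called higher and 10 lower against the mean of controls, beside 1.54% and 3.26% of all genes. Of these 14 calls, 3 (Sema3d, Sema3g and Bmp2) passed the filter only through control groups. Of the cytoplasmic signalling genes downstream of the receptors, 0 were higher and 1 of 37 was lower, with a median log2 difference of -0.08. That gene was Nfatc1, a calcineurin-regulated transcription factor, at 61.8 ± 11.1 FPKM in controls (SD, n = 6) and 34.8 ± 4.17 in E3KO (SD, n = 3; log2 difference -0.80, limma, adjusted p = 0.0373). Cdc42, the most abundant gene of the list and a GTPase of the actin cytoskeleton, measured 454 and 434 FPKM. Of the receptor partners and modulators, 1 of 34 was higher and 1 was lower (median -0.07). Clec14a, an endothelial C-type lectin, rose from 16.4 ± 1.501 to 27.0 ± 1.25 FPKM (log2 difference 0.69, limma, adjusted p = 0.0140) and passed against ECtrl (0.0348) and EfCtrl (0.0399) as well, although not against EfCtrl without the library labelled E3KO replicate 1 (0.0580). Spred2, an inhibitor of Ras and ERK signalling, fell by 0.51 on the log2 scale (adjusted p = 0.0406), and Cdh5 (VE-cadherin), the most abundant, measured 807 and 837 FPKM.

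Of the class 3 semaphorins and plexins that act with neuropilins, 0 were higher and 3 of 9 were lower (median -0.20), beside 3.26% of all genes lower. Sema3a, a ligand of Nrp1 and the most abundant of this list, measured 67.3, 80.9 and 89.5 FPKM in ECtrl, 85.7, 80.5 and 68.2 in EfCtrl, and 26.1, 53.0 and 42.2 in E3KO. All E3KO libraries were below all controls, and the log2 difference was -0.99 (limma, adjusted p = 0.0400). Sema3a passed against neither control group alone (adjusted p = 0.0733 for ECtrl and 0.101 for EfCtrl). The others, Sema3d (5.86 FPKM in controls and 1.03 in E3KO) and Sema3g (1.83 and 0.418), passed the filter only through control groups. Both were higher there than in E3KO, although the mean of Sema3g over the controls was itself under 2 FPKM. Their calls are given as a description, and Sema3a is the 1 call of this list that the filter did not favour.

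Of the genes known to be induced by VEGF in endothelium, 3 of 20 were higher and 3 were lower (median 0.05), beside 1.54% and 3.26% of all genes, so the list did not move in a single direction. Ptgs2 (cyclooxygenase 2) rose from 2.46 to 12.1 FPKM (log2 difference 1.97, limma, adjusted p = 0.0204). Ccl2, a monocyte chemoattractant, rose from 217 to 511 FPKM (1.27, adjusted p = 0.0231), and Esm1 (endocan), a tip cell gene, rose by 1.02 on the log2 scale (adjusted p = 0.0337). Stc1 (stanniocalcin 1) fell from 31.6 to 9.85 FPKM (-1.66, adjusted p = 0.0217). The other two that fell, Bmp2 and Rcan1, a target and inhibitor of calcineurin, are named after their values were seen (-0.77 and -0.69). Angpt2, the Tie2 ligand and the most abundant of the list, went from 1148 to 816 FPKM (adjusted p = 0.0724), short of the threshold.

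Of the transcription factors and oxygen sensors known to regulate VEGF genes, 0 were higher and 2 of 23 were lower (median -0.19), beside 1.54% of all genes higher and 3.26% lower. Prox1, the lymphatic identity factor, fell from 134 ± 15.4 to 67.3 ± 10.8 FPKM (log2 difference -0.99, limma, adjusted p = 0.0131) and passed against ECtrl (0.0280) and EfCtrl (0.0399), although not against EfCtrl without the library labelled E3KO replicate 1 (0.0625). Jun, the AP-1 subunit phosphorylated by JNK, fell from 12.9 to 8.18 FPKM (-0.60, adjusted p = 0.0329). Erg, an endothelial ETS factor and the most abundant of the list, measured 139 and 131 FPKM. The 14 calls over the 5 lists became 0 without the library labelled E3KO replicate 3, 1 and 3 without EfCtrl replicate 3 and 1, 7 without the library labelled E3KO replicate 1, and 8 without EfCtrl replicate 2, ECtrl replicate 3 or the library labelled E3KO replicate 2. Without the library labelled E3KO replicate 1, all 14 kept their direction, with log2 differences 0.720 to 1.16 times those of all libraries. The calls of Bmp2, Clec14a, Prox1, Ptgs2, Sema3a, Sema3g and Stc1 stood, and those of Ccl2, Esm1, Jun, Nfatc1, Rcan1, Sema3d and Spred2 did not. With all libraries, only Clec14a and Prox1 of the 14 passed against EfCtrl alone. Esm1, Jun, Nfatc1, Rcan1, Sema3a and Spred2 passed against neither control group alone.

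**Figure D4:**
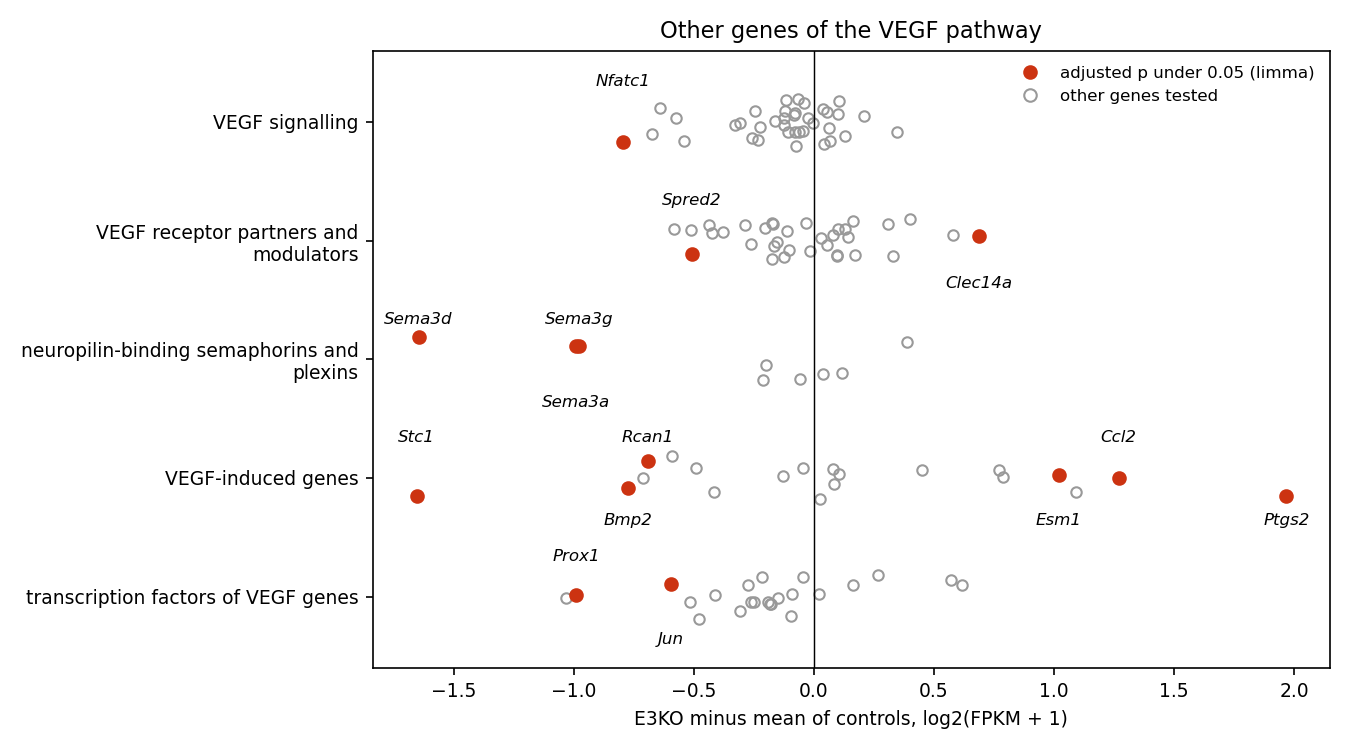
Each circle is a tested gene of 1 of 5 VEGF pathway lists, placed by its difference in mean log2(FPKM + 1) between the 3 E3KO and the 6 control libraries (horizontal axis), with vertical scatter added for legibility. Filled circles mark the 14 genes with a limma adjusted p under 0.05, 4 of them higher and 10 lower in E3KO.

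The cells were checked against markers of endothelium and of other lung cell types. The defining markers Cdh5 and Pecam1 were high in all groups (Pecam1 704 FPKM in controls and 722 in E3KO). Of 11 general endothelial markers tested, 1 was higher (Emcn, the most abundant, 973 to 1495 FPKM) and 1 was lower (Cldn5, 217 to 114 FPKM), beside 1.54% of all genes higher and 3.26% lower, and the summed FPKM of the list was 3275 to 3944 in the controls and 3777 to 4267 in E3KO. The lymphatic marker Lyve1 was the most abundant of its list at 1689 FPKM in controls and 1605 in E3KO. Of 11 lymphatic markers, 4 were lower (Prox1, Ccl21a, Reln and Fxyd6) and 0 were higher, beside 3.26% of all genes lower, with a median of -0.58 and a summed FPKM of 2610 to 3592 in the controls and 2350 to 2648 in E3KO. Ccl21a passed the filter only through control groups. Without the library labelled E3KO replicate 1, Emcn, Cldn5 and Ccl21a did not pass (limma, adjusted p of 0.0540, 0.0704 and 0.0638), and Prox1, Reln and Fxyd6 did. With all libraries, Prox1, Reln and Fxyd6 also passed against each control group alone, and Emcn, Cldn5 and Ccl21a against neither. Ccl21a, Reln, Fxyd6, Cldn5 and, among fibroblast markers, Thy1 are named after their values were seen.

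Myeloid cells also carry VEGFR1, so leukocyte markers are given beside Flt1. Of 6 leukocyte markers tested, 0 were called, beside 4.80% of all genes. Markers were tested if the mean of any 1 group reached 2 FPKM, so the filter can favour the signs of low ones. All 6 had a positive difference from the mean of controls (median 0.82, against -0.08 for all genes). Against ECtrl 6 of 6 were positive (median 1.08), and against EfCtrl 5 of 6 (median 0.39). Between the controls, EfCtrl against ECtrl, 5 of the 6 leukocyte markers were also positive (median 0.80). Their summed FPKM over all 12 markers was 83.999, 178 and 155 in ECtrl, 217, 295 and 179 in EfCtrl, and 232, 333 and 364 in E3KO. In this sum only the library labelled E3KO replicate 1 overlapped with the controls, and the other E3KO libraries (333 and 364) were above every control. In Flt1 no E3KO library overlapped with the controls. ECtrl replicate 1 was lowest in both and the library labelled E3KO replicate 3 highest in both, whereas EfCtrl replicate 2 had a higher sum (295) than the library labelled E3KO replicate 1 (232) with a lower Flt1 (5.53 against 9.32 FPKM). Lyz2 was the most abundant, at 107 FPKM in controls and 189 in E3KO, the defining marker Ptprc (CD45) measured 0.785 and 0.991, and Cd3e was listed at 0 in every library. Ms4a6d, among the genes nearest to Flt1 in pattern, is also known from myeloid cells and was not on the marker list. The part of leukocyte RNA in the Flt1 difference was not tested.

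Of 5 fibroblast markers tested, 1 was lower (Thy1) and 0 were higher, beside 3.26% of all genes lower and 1.54% higher. Thy1 passed against neither control group alone (limma, adjusted p = 0.0606 for ECtrl and 0.0752 for EfCtrl). Against the mean of controls 0 of the 5 had a positive difference (median -1.15). Against ECtrl 2 of the 5 did (median -0.89), and against EfCtrl 0 (median -1.16). Between the controls, all 5 were higher in EfCtrl than in ECtrl (median 0.53). Of the 5, Col1a1 passed the filter of 2 FPKM only through control groups, so the filter favoured its negative sign against the controls. The summed FPKM over all 10 markers of the list, tested or not, was 108 to 147 in E3KO, against 236 to 384 in the controls, and was made up mostly of Thy1, while the defining markers Col1a1 (2.98 and 0.366 FPKM) and Pdgfra (0.547 and 0.527) were low in both. Of 3 smooth muscle and pericyte markers tested, 0 were called and 0 had a positive difference (median -0.85), with sums over all 10 markers of 28.2 to 75.3 and 28.5 to 32.1 FPKM; Mcam was the most abundant, and Myh11 measured 0.127 and 0.0768. Epithelial markers, of which 0 of 2 tested were called, had sums over all 10 of 2.55 to 6.05 FPKM in the controls, 51.8 in the library labelled E3KO replicate 1 and 2.92 and 4.50 in the other E3KO libraries, with Scgb1a1 the most abundant and Nkx2-1 listed at 0. Mesothelial markers, led by Wt1, summed to at most 3.60 FPKM, with none tested. The part of these cell types and of the lymphatic markers in the Pgf difference was not tested. Without the library labelled E3KO replicate 1, the log2 difference of Pgf was -0.70 (limma, adjusted p = 0.0442).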

How the data were processed

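Poly-A RNA of MLEC was sequenced as paired 40 bp reads. The authors aligned them to mm10 with TopHat and Bowtie, estimated expression with Cufflinks (1.0.3 in the submitters' processing notes) and compared groups with Cuffdiff. The deposited values are FPKM of each library and each group. The authors' log2 fold changes, p-values and q-values were not used. FPKM keeps no depth, and whether counting used strand is not given in the sources used here, so genes with an antisense neighbour, such as Nrp2, are less certain.

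Library FPKM of symbols with a single locus (33353) and a mean of at least 2 in any group were tested as log2(FPKM + 1) with limma 3.58.1 (R 4.3.3) on 3 groups, with Benjamini-Hochberg adjustment over 10605 genes and a threshold of 0.05. Fold changes on this scale understate low genes. Single members used exact permutation of log2(FPKM + 0.1), as did 5 ratios and 8 neighbouring levels. The limma step was tested on simulated data. Replicates are separate isolations. Members, lists and tests were chosen with earlier results of these data known. Genes named were the members, the Jnk genes, up to 4 called genes and the most abundant gene of each list, markers at 0, and the 3 genes nearest in pattern to each called member. Single markers of cell types (Pecam1, Ptprc, Col1a1, Pdgfra and Myh11) were named too. Further genes, such as Bmp2 and Rcan1, are marked in the text as named after their values were seen. Promoters came from RefSeq GRCm38.p6, and transcripts from GENCODE M21. Alternatives covered the pseudocount, filter, centring, variance trend, a replicate block, single control groups and each library left out.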

Additional observations from a re-analysis of the deposited data

How the results depend on the processing

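The 2 members called against the mean of controls became 1 with a pseudocount of 0.1 or 0.5, with a filter of 1 FPKM and with no filter on low values (Pgf in each), and 0 with the replicate block, and ranged from 0 to 2 when each library was left out in turn. Over the other settings the adjusted p of Flt1 was 0.0430 to 0.0925 and that of Pgf 0.0131 to 0.0685. Against ECtrl the count went from 0 to 1 with a filter of 5 FPKM and with a mean-variance trend, and was 0 to 0 with libraries left out. Against EfCtrl it went from 0 to 1 under the same settings and was 0 to 1 with libraries left out. The 14 pathway genes called became 6 with the replicate block and 0 to 14 with libraries left out. In the exact permutation test the 2 members became 0 against ECtrl alone and 0 against EfCtrl alone, where 3 against 3 libraries cannot go below 0.1, and 2 to 3 with libraries left out. No ratio passed with either pseudocount or with libraries left out, and no neighbouring pair of levels with either pseudocount. Ratios against a single control group cannot go below 0.1, and levels over 5 libraries cannot go below 0.0625, so those settings could not pass, and a lone ratio at its smallest p cannot pass after adjustment in any setting; these counts of 0 say nothing about stability. EfCtrl against ECtrl gave 0 members throughout.

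Replicate numbers did not pair the libraries: same-numbered libraries had deviations correlated at -0.0395 to 0.123, and 5 of 9 libraries were nearest to their own number. With the replicate block, all genes called against the mean of controls went from 509 to 202. Those called against ECtrl went from 239 to 1, and those against EfCtrl from 101 to 1. Without a filter, those against the mean of controls went to 351. The cause of these changes was not tested.

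Signs turned only for members near 0. Centring libraries on their median, which removes the general shift of -0.08, gave 0.0394 for Nrp2 and 0.0643 for Vegfa against the mean of controls and 0.0130 for Flt4 against ECtrl. Vegfa was 0.0135 and 0.00122 with pseudocounts of 0.1 and 0.5, and in the permutation test -0.00670 with a pseudocount of 1 and -0.12 against ECtrl alone, where Nrp2 was 0.0469. With libraries left out in turn, the ranges against the mean of controls were -0.16 to 0.18 for Nrp2 and -0.11 to 0.15 for Vegfa. Against ECtrl they were -0.20 to 0.0459 for Flt4, -0.0905 to 0.26 for Nrp2 and -0.28 to 0.22 for Vegfa. Against EfCtrl they were -0.24 to 0.10 for Nrp2 and -0.0866 to 0.31 for Vegfa. In the permutation test they were -0.16 to 0.18 for Nrp2 and -0.13 to 0.22 for Vegfa.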

Other observations

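The remaining VEGF ligand, VEGF-D (Figf in the files), was not among the genes tested because its level was under the filter, and it is named after its values were seen. It measured 0.411, 0.507 and 0.847 FPKM in ECtrl, 0.385, 0.290 and 0.109 in EfCtrl, and 1.44, 0.235 and 0.381 in E3KO. The library labelled E3KO replicate 1 was the highest of the 9, and the other E3KO libraries lay within the range of the controls.

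The authors' group value of Flt1 was 14.0 FPKM in E3KO, above each of the 3 libraries (9.32, 9.61 and 11.8 FPKM). It was 1.37 times the mean of the libraries, whereas the median ratio over all genes tested was 1.17 in E3KO and the 95th percentile 1.27. For Pgf the ratio in E3KO was 1.20. A fold change of Flt1 taken from the group values would therefore be larger than the one given here from the libraries.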
